A study of Homo sapiens with 6 samples.

Results

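The 10 genes described here are the NF-kappa-B subunit genes NFKB1, NFKB2, REL, RELA and RELB, the feedback inhibitor genes NFKBIA, NFKBIZ and TNFAIP3, and the target genes BIRC3 and ICAM1. They were chosen by name, and 9 of the 10 were measured among 18404 genes. BIRC3 was not analysed here. Each measured gene had 1 probe set, which carried no other gene symbol. The values come from 6 expression arrays of HaCaT cells, an established line of immortalised human skin keratinocytes grown with serum. In 3 samples (shTP63) a lentivirus carried a short hairpin RNA against TP63, the gene of the epithelial transcription factor p63, and in 3 samples (shControl) a lentivirus carried the control vector. RNA was taken after 72 hours in both groups. All 6 samples had therefore been through lentiviral delivery, and the labels give neither the number of hairpin sequences nor a statement that replicates were separate cultures, so p-values describe only the spread among these samples and that spread may be technical. TP63 was not analysed here, so directions rest on the sample labels.

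NF-kappa-B is a family of dimeric transcription factors held inactive in the cytoplasm by inhibitor proteins. Receptors for TNF, interleukin 1 and microbial products activate a kinase complex that marks the inhibitor NFKBIA for destruction, which frees RELA and REL dimers. A slower branch runs through the kinase MAP3K14 and the processing of the NFKB2 precursor, and acts with RELB. The released dimers switch on genes that dampen the response, NFKBIA and TNFAIP3 among them, and in the epidermis NF-kappa-B is known for its roles in inflammation, cell survival and the balance between growth and differentiation.

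NF-kappa-B dimers bind a 10-base element, the kappa-B consensus. RefSeq promoter windows (GRCh38.p14), which run from 250 bases before to 50 bases after a gene's start, were present for 8 of the 9 measured genes, all but RELB. The consensus was found on either strand in at least 1 window of 6 of these 8 genes, against 7.09% of all 27305 genes with a window and 5.91% of all 35116 windows. The genes were chosen as subunits and targets of NF-kappa-B, so their share is not independent of that choice. Genes with more windows have more room for a match, and the 9 members with a window, BIRC3 among them, had 14 windows. A shorter core, GGAAATTCC or its reverse complement, was found in 0.461% of all windows and in 0.56% of all genes with a window. Among the 6 genes with a consensus match, 4 held the core, which lies within that match. ICAM1 also held it, in a window without a full consensus. RELA had no match in its windows. Such matches are a description of the letters, not evidence of binding. The windows of TNFAIP3 (chr6:137867009-137867308, plus strand) and NFKBIA (chr14:35404700-35404999, minus strand) are shown whole because TNFAIP3 changed most and NFKBIA encodes the main inhibitor, with the matches in capitals and each sequence written 5′ to 3′ along its gene.
TNFAIP3: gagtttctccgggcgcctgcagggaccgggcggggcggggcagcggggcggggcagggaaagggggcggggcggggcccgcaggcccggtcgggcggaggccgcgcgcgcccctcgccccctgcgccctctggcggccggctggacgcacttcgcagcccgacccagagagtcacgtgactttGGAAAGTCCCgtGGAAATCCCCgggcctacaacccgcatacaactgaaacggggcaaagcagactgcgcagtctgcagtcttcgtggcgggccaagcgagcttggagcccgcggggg
NFKBIA: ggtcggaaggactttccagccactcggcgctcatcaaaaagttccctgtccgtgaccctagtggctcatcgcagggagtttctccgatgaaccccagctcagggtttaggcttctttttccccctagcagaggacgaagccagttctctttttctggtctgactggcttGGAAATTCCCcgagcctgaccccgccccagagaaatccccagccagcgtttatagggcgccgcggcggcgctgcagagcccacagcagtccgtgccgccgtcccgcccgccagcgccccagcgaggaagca
TNFAIP3 held 2 matches, of which the nearer to the start began 55 bases before it, and NFKBIA held 1, which began 81 bases before its start.

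For the other genes the match with its flanks is shown, to set genes that rose beside one that fell. The stretches lie at chr10:102394456-102394495 (NFKB2), chr3:101827752-101827791 (NFKBIZ), chr2:60881512-60881551 (REL), chr19:10270919-10270957 (ICAM1) and chr4:102501295-102501334 (NFKB1), all on the plus strand, and the capitals mark the consensus, or the core in ICAM1.
NFKB2: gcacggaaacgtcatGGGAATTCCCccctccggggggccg
NFKBIZ: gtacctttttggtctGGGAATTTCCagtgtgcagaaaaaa
REL: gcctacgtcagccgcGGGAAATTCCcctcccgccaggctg
ICAM1: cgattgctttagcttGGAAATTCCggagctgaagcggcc
NFKB1: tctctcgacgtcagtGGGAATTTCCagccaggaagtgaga
NFKB1, which was lower in shTP63, and NFKBIZ, which was higher, carry the same 10 letters. NFKB2 held further matches in this window and in another of its 3 windows, REL held a second match that overlaps the one shown, and NFKBIZ held another in a second window.

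The median log2 intensity over all probe sets was 7.54 to 7.57 on the shTP63 arrays and 7.44 to 7.47 on the shControl arrays. The mean of these medians was higher by 0.107 in shTP63, close to the smallest differences given below. Over the 18404 genes tested, however, the median difference was -0.013, and it was -0.12 after each array was centred on its median. Arrays correlated across probe sets at r of 0.996 to 0.998 within a group and 0.988 to 0.991 between groups. Background was taken as 6.76 (log2 intensity), the 95th percentile over 340 olfactory receptor genes, which keratinocytes mostly do not use, and all 9 genes lay above it in both groups. Of 9 measured keratinocyte markers all lay above background, with KRT5 at 13.31 in shTP63 and 13.82 in shControl, and 1 of them rose and 4 fell. Markers of other cells were examined because NF-kappa-B genes are also active in other cells. Of 11 immune markers 1 rose and 0 fell, while of all genes tested 16.4% rose and 25.1% fell. Of the 11, 8 had a mean under background in at least 1 group, which limits that count. The pan-leukocyte gene PTPRC lay under background, at 4.27 in shTP63 and 4.31 in shControl (log2 intensity). The marker that rose was TYROBP, above background at 8.65 in shTP63 and 8.41 in shControl (difference 0.24, SE 0.060, limma adjusted p = 0.0101). That call was lost after each array was centred on its median, where 0 of the 11 immune markers rose and 2 fell. The summed intensity of the immune list was 1058 to 1115 in shTP63 and 961 to 1057 in shControl. It was 1252 to 1335 in shTP63 and 1192 to 1232 in shControl for 8 fibroblast markers (1 rose, 1 fell), and 1123 to 1161 in shTP63 and 1072 to 1116 in shControl for 7 endothelial and melanocyte markers (1 rose, 1 fell). These sums are on the deposited scale, without centring. Of the 8 markers 3, and of the 7 markers 5, had a mean under background in at least 1 group, among them the 1 that fell in each list. After centring on the array median 0 of the 8 rose and 2 fell, and 0 of the 7 rose and 3 fell. The part of such cells in the results was not tested.

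Compared with shControl, 7 of the 9 genes were higher in shTP63 and 2 were lower, each past an adjusted p of 0.05 in limma's moderated test. With each array left out in turn, 5 or 6 rose and 1 or 2 fell. All 3 feedback inhibitors, the adhesion gene ICAM1 and the subunits NFKB2, RELB and REL rose, while RELA and NFKB1 fell. TNFAIP3 changed by far the most, 3.19-fold, and the other changes were between 1.09-fold and 1.33-fold. Of all genes tested 41.5% passed the same threshold, 16.4% higher and 25.1% lower, and in 51.4% the values of the groups did not overlap, as they did not for any of the 9 genes. The median difference of the 9 genes was 0.34 on the log2 scale, against -0.013 over all genes tested. The genes were chosen with earlier results of these data known, so their count is a description.

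TNFAIP3 encodes a ubiquitin-editing enzyme that shuts down signalling from TNF and Toll-like receptors. Its log2 intensity was 10.49, 10.54 and 10.54 in the shTP63 samples and 8.89, 8.84 and 8.81 in the shControl samples. The lowest shTP63 value lay 1.60 above the highest shControl value. The log2 difference of TNFAIP3 was 1.67 (SE 0.044), with a limma adjusted p = 8.61e-08, a rise exceeded by 24 of the 18404 genes. Its promoter window is the first of those shown whole.

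NFKBIA encodes the inhibitor that binds RELA and REL dimers and is resynthesised after each round of activation. It was already bright, with 97.6% of genes dimmer, at 12.23, 12.25 and 12.26 in shTP63 and 11.89, 11.85 and 11.82 in shControl. The groups stood 0.34 apart at their nearest values. NFKBIA rose by 0.39 (SE 0.042, limma adjusted p = 9.96e-05), or 1.31-fold. NFKBIZ encodes an atypical nuclear member of the inhibitor family, which acts with NFKB1 dimers on a second set of genes. It stood at 8.88, 8.97 and 8.86 in shTP63 and at 8.59, 8.49 and 8.45 in shControl, again without overlap. Its rise of 0.39 (SE 0.054, limma adjusted p = 0.000372) was close in size to that of NFKBIA.

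ICAM1 encodes an adhesion molecule to which leukocyte integrins bind and is a widely used readout of NF-kappa-B activity. Its levels were 9.81, 9.94 and 9.94 in shTP63, against 9.58, 9.55 and 9.53 in shControl. One shTP63 sample, replicate 1, was lower than the other two yet stayed 0.23 above the highest shControl value. ICAM1 rose by 0.34 (SE 0.050, limma adjusted p = 0.000568), or 1.27-fold.

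**Figure D1:**
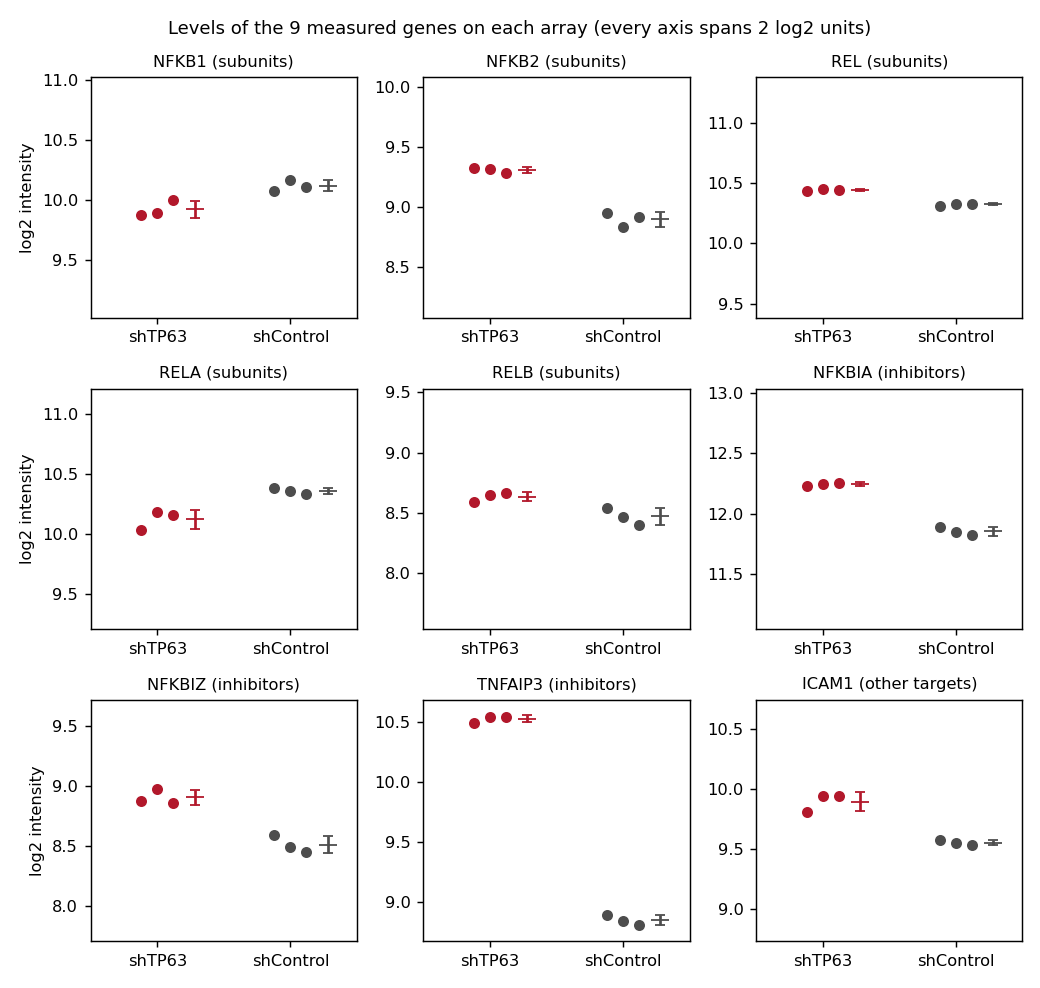
Log2 intensity of the 9 measured genes on each array (points), with the mean and SD of the 3 samples beside them, shTP63 left and shControl right, on axes that all span 2 log2 units. TNFAIP3 is set far apart, with means of 10.53 in shTP63 and 8.85 in shControl, while NFKB1 and RELA are lower in shTP63.

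Among the subunits, NFKB2 rose most. NFKB2 encodes the precursor that is processed in the slower branch of the pathway. Its levels were 9.33, 9.31 and 9.28 in shTP63 and 8.96, 8.83 and 8.91 in shControl, with the groups 0.33 apart. The rise was 0.41 (SE 0.047, limma adjusted p = 0.00015), or 1.33-fold. RELB, the partner of processed NFKB2, stood at 8.59, 8.65 and 8.66 in shTP63 and at 8.54, 8.47 and 8.40 in shControl. The nearest values of the groups were only 0.050 apart. RELB rose by 0.17 (SE 0.050, limma adjusted p = 0.0261). That call was lost when any 1 of 4 arrays was left out (differences 0.13 to 0.20 over the 6 arrays left out in turn, highest adjusted p = 0.105) and after each array was centred on its median (0.058, adjusted p = 0.34).

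REL encodes the transactivating subunit best known from lymphocytes. It stood at 10.43, 10.45 and 10.45 in shTP63 and at 10.31, 10.33 and 10.33 in shControl, with the smallest spread of the 9 genes (SD 0.0075 in shTP63 and 0.0082 in shControl). The difference of 0.12 was the smallest of the 9 (SE 0.040, limma adjusted p = 0.0386). The call was lost without any 1 of the 6 arrays (differences 0.11 to 0.12, adjusted p = 0.0608 to 0.0998), and after centring on the array median the difference was 0.011 (adjusted p = 0.843).

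RELA encodes the main transactivating subunit of the fast branch. It was lower in shTP63, at 10.03, 10.18 and 10.16, against 10.39, 10.36 and 10.34 in shControl. The highest shTP63 value lay 0.16 below the lowest shControl value. RELA fell by 0.24 (SE 0.051, limma adjusted p = 0.00504), or 1.18-fold. NFKB1 encodes the precursor of the DNA-binding partner of RELA. Its levels were 9.87, 9.89 and 10.00 in shTP63 and 10.08, 10.17 and 10.11 in shControl, with 0.078 between the nearest values. NFKB1 fell by 0.20 (SE 0.051, limma adjusted p = 0.0124). Leaving out shControl replicate 2 ended the NFKB1 call (-0.17, adjusted p = 0.0532), as did scaling by cyclic loess (-0.13, adjusted p = 0.0753) and by quantiles of single-gene probe sets (-0.13, adjusted p = 0.069).

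Differences between the groups varied with brightness across all genes. Of 5 equal bins by mean level, the brightest held RELA, NFKB1, REL and NFKBIA, and there the median difference of all genes was -0.098, with 44.0% of 3681 genes lower and 25.3% higher. The next bin, which held NFKB2, TNFAIP3 and ICAM1, had a median of -0.10, with 43.0% lower and 18.5% higher. The 95% intervals ran from -0.35 to -0.12 for RELA and from -0.31 to -0.081 for NFKB1, and the NFKB1 interval holds the median of its bin. The part of brightness in these differences was not tested.

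**Figure D2:**
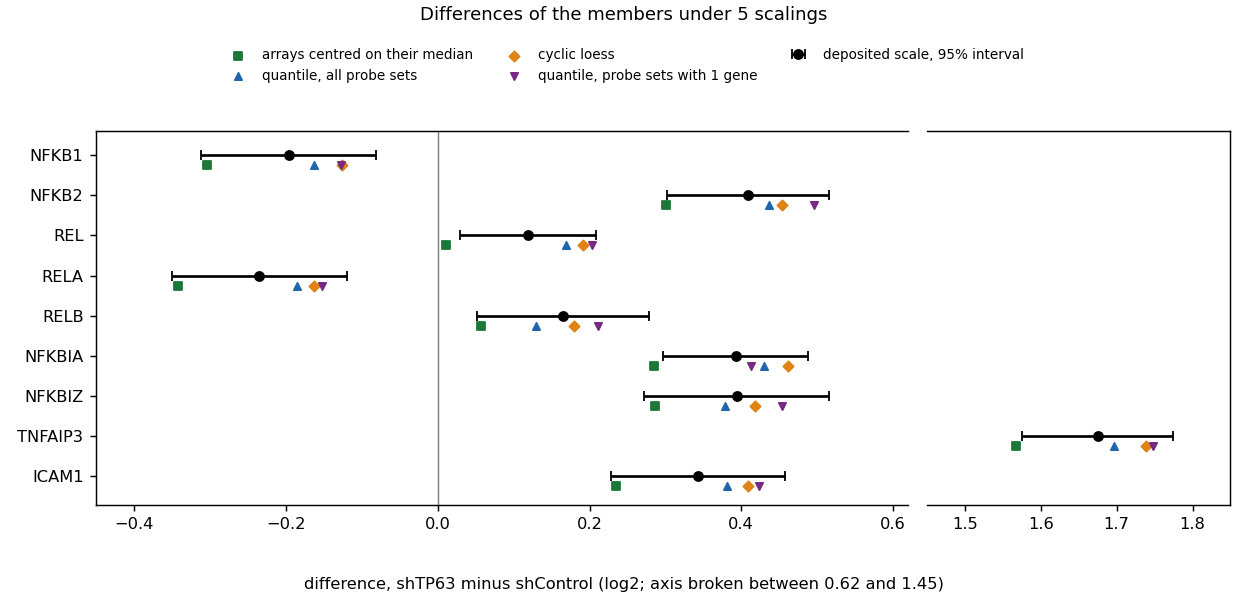
Difference of each gene between shTP63 and shControl on the log2 scale (black points, 95% interval from limma), with the same difference under 4 other scalings below it (coloured symbols). Every gene keeps its side of 0 under the 5 scalings, and REL after centring on the array median lies nearest to 0, at 0.011.

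Ratios between 2 of the genes within an array do not depend on a shift shared by the whole array. They can still carry a difference that varies with brightness, and that part was not tested. The median difference was -0.00036 in the bin of RELB and -0.098 in that of RELA. These 4 pairs were chosen after their values were seen, 3 of them as a gene that rose over a gene that fell, so the ratios are a description. An exact two-sided permutation test gave p = 0.1 for each. That is the smallest p it can give with 3 arrays a group, so it decides nothing. The log2 ratio of REL over RELA was 0.40, 0.27 and 0.29 in shTP63 and -0.071, -0.028 and -0.0097 in shControl, and so was higher by 0.35 in shTP63. RELB over RELA was higher by 0.40, with means of -1.49 ± 0.045 in shTP63 and -1.89 ± 0.046 in shControl (SD, n = 3). NFKB2 over NFKB1 was higher by 0.60, with means of -0.61 ± 0.091 in shTP63 and -1.22 ± 0.109 in shControl (SD, n = 3). TNFAIP3 over NFKBIA was higher by 1.28, with means of -1.72 ± 0.017 in shTP63 and -3.00 ± 0.006 in shControl (SD, n = 3). Only the change of a ratio can be read, since levels of different probe sets are not comparable.

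**Figure D3:**
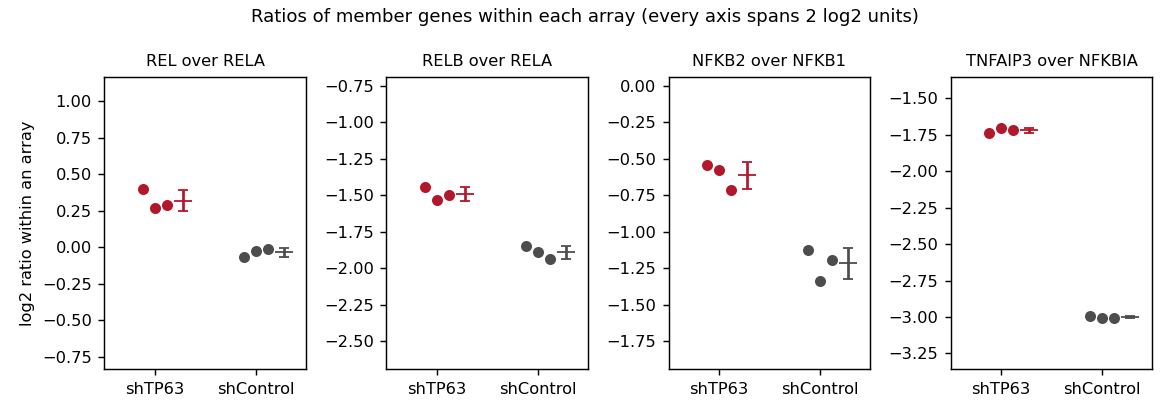
Log2 ratio of 2 genes within each array (points) with the mean and SD of the 3 samples, shTP63 left and shControl right, on axes that each span 2 log2 units. All 4 ratios are higher in shTP63, by 0.35 (REL over RELA) to 1.28 (TNFAIP3 over NFKBIA).

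The rest of the pathway was examined by role, from lists drawn up from general knowledge but with earlier results of these data known. Their counts and medians are therefore a description. Among 4 other genes of the inhibitor family, 2 rose and 0 fell, while 16.4% of all genes tested rose and 25.1% fell. NFKBID, an atypical nuclear inhibitor, rose by 0.32 (SE 0.059, limma adjusted p = 0.00205) and BCL3, a nuclear coactivator of NFKB2 dimers, by 0.18 (SE 0.061, limma adjusted p = 0.0384), a call lost without any 1 of 5 arrays and after centring on the array median (0.076, adjusted p = 0.291). NFKBIE differed by 0.14 (limma adjusted p = 0.0502), which passed under 2 of the 4 other scalings, and NFKBIB by 0.020 (limma adjusted p = 0.785).

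Of 16 ubiquitin-editing and other negative regulators, 2 rose and 5 fell. These shares, 12.5% and 31.2%, lie near the 16.4% and 25.1% of all genes tested. The list's median was -0.062 (log2 difference), against -0.013 over all genes. ZC3H12A, a ribonuclease that degrades inflammatory messages, rose by 0.90 (SE 0.040, limma adjusted p = 1.14e-06), with levels of 10.12, 10.13 and 10.09 in shTP63 and 9.22, 9.20 and 9.21 in shControl. TRAF3, which keeps the kinase MAP3K14 low, rose by 0.21 (SE 0.061), a call lost without any 1 of 3 arrays and under 2 of the 4 other scalings. RNF11, a partner of TNFAIP3 in ubiquitin editing, fell by 0.47 (SE 0.063), COMMD1, which promotes turnover of RELA, by 0.46 (SE 0.054) and the linear-ubiquitin hydrolase OTULIN by 0.35 (SE 0.050). The count moved with the scaling: 1 rose and 8 fell after centring on the array median, and 6 rose and 4 fell after scaling by quantiles of single-gene probe sets.

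Of 23 kinases and adaptors, 4 rose and 10 fell. The list's median was -0.13 (log2 difference). The inducible kinase IKBKE rose by 0.72 (SE 0.041, limma adjusted p = 4.3e-06) and the interleukin 1 receptor kinase IRAK2 by 0.82 (SE 0.061, limma adjusted p = 1.48e-05). TRAF5 rose by 0.28 (SE 0.065) with both groups under background, a call lost under 2 of the 4 other scalings, and the remaining rise was that of MAP3K14, at 0.18 (SE 0.041), a call also lost under 2 of the 4 other scalings (0.068 after centring, adjusted p = 0.225). RBCK1, a subunit of the linear ubiquitin ligase, fell by 0.35 (SE 0.053), TAB2, an adaptor of the kinase MAP3K7, by 0.32 (SE 0.050) and MYD88, the adaptor of Toll-like and interleukin 1 receptors, by 0.30 (SE 0.046). The share that rose, 17.4%, lies beside 16.4% of all genes tested. The share that fell, 43.5%, lies beside 25.1% of all genes tested and 44.0% of the brightest bin. Genes of this list lie in bins from the dimmest, where 4.43% of all genes fell, to the brightest, so no single bin matches it. After centring on the array median 2 rose and 17 fell, and with quantiles of single-gene probe sets 5 rose and 6 fell. In the kinase complex at the centre of the fast branch, the regulatory subunit IKBKG fell by 0.16 (SE 0.050, limma adjusted p = 0.0293), a call lost without any 1 of 4 arrays and under 1 of the other scalings. The catalytic subunits did not pass, CHUK with a difference of -0.11 (limma adjusted p = 0.0653) and IKBKB with -0.095 (limma adjusted p = 0.12). After centring on the array median both passed, CHUK at -0.22 (adjusted p = 0.00262) and IKBKB at -0.20 (adjusted p = 0.00452). Of 16 alternatives CHUK passed in 3 and IKBKB in 1. CHUK ran up to -0.026 (highest limma adjusted p = 0.69) and IKBKB up to -0.0042 (highest limma adjusted p = 0.95). MAP3K14 and these 3 subunits were picked out with their values known.

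Of 21 activating ligands and receptors, 13 rose (61.9%) and 1 fell (4.76%), against 16.4% and 25.1% of all genes tested. The list's median was 0.18 (log2 difference), against -0.013 over all genes. The cytokine IL1A rose by 1.46 (SE 0.050, limma adjusted p = 3.6e-07), with levels of 9.22, 9.22 and 9.09 in shTP63 and 7.68, 7.72 and 7.75 in shControl. The receptors TLR6 and TLR1, which pair with TLR2 on bacterial lipopeptides, rose by 1.13 (SE 0.066) and 0.87 (SE 0.053), TLR1 with its shControl mean under background, which leaves the size of that rise uncertain. The fall was that of IL1R1, the signalling receptor of IL1A, which fell by 0.75 (SE 0.055, limma adjusted p = 1.42e-05) to 7.97, 7.79 and 7.85 in shTP63, against 8.61, 8.64 and 8.59 in shControl. After centring on the array median 9 of the list rose and 4 fell.

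Of 29 other genes known to respond to NF-kappa-B, 21 rose (72.4%) and 3 fell (10.3%), against 16.4% and 25.1% of all genes tested. The list's median was 0.56 (log2 difference), against -0.013 over all genes. Under the 4 other scalings 18 to 20 rose and 3 to 5 fell. The neutrophil chemokine CXCL8 rose by 2.30 (SE 0.049), the prostaglandin synthase PTGS2 by 1.90 (SE 0.041) and the lipocalin LCN2 by 1.76 (SE 0.050). Their limma adjusted p ran between 2.57e-08 and 1.23e-07. CFLAR, an inhibitor of caspase activation, fell by 0.58 (SE 0.065, limma adjusted p = 0.000125), the interferon regulatory factor IRF1 by 0.25 (SE 0.051, limma adjusted p = 0.00377) and BCL2L1, a survival gene of the BCL2 family, by 0.23 (SE 0.040, limma adjusted p = 0.00165). The other CFLAR probe set fell by 0.27. Of the 29 genes 9 had a mean under background in at least 1 group, and 4 of these rose, by a size that is uncertain for that reason. CXCL2, CCL20 and TNFRSF9, with means of 7.47, 7.27 and 7.32 in shTP63 and 6.48, 6.32 and 6.67 in shControl, were under background in shControl, and CXCL3, at 6.66 in shTP63 and 6.49 in shControl, in both groups. The CXCL3 call was lost under each of the 4 other scalings. These 4 chemokine and receptor genes were picked out with their values known.

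**Figure D4:**
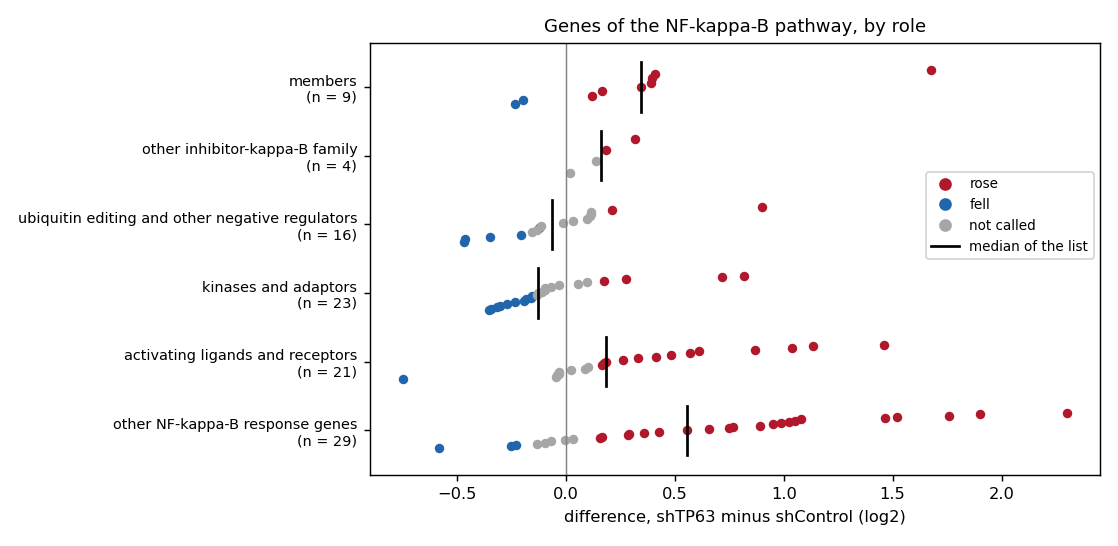
Difference between shTP63 and shControl on the log2 scale for each measured gene of the pathway, 1 point a gene, coloured by its call at an adjusted p of 0.05, with the median of each list as a black bar. The medians of the 5 other lists run from -0.13 for kinases and adaptors to 0.56 for other response genes, and TNFAIP3 is the isolated point of the members at 1.67.

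The genes whose pattern over the 6 arrays was nearest to that of TNFAIP3, by the root mean square distance of values less their own mean, were NFE2L3, a transcription factor gene (0.052 on the log2 scale), LCN2 (0.063), N-cadherin CDH2 (0.068), the immunoglobulin transporter PIGR (0.073) and the protease inhibitor TFPI2 (0.078). Their differences ran from 1.52 for TFPI2 to 1.76 for NFE2L3. With 2 groups, this distance mainly compares the size of the group difference. PIGR had a shControl mean of 6.74, under background.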

How the data were processed

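The authors deposited 1 table of 6 arrays (72 hours, 3 samples a group) made with RMA in R 2.15.1, per the submitters' processing notes. RMA corrects background, normalizes arrays and summarises probes, which removes much of a shift shared by a whole array, but the deposited medians still differed between groups. The authors deposited linear intensities, of which log2 was taken here. Of 32321 probe sets 19158 had 1 gene symbol in the platform annotation, 1388 several and 11775 were unlisted. Each of 18404 genes was represented by its brightest probe set. Differences between groups were tested two-sided with lmFit and eBayes of limma 3.58.1 (R 4.3.3) without covariates, and p-values were adjusted by Benjamini and Hochberg's method across the 18404 genes, with 0.05 as the threshold. Members and lists were chosen with earlier results of these data known. Text names the 10 members, up to 3 rises and 3 falls per pathway list by smallest adjusted p, and the 5 genes nearest the most changed member; other names are additions made after values were seen. Marker lists covered keratinocytes, immune cells, fibroblasts, and endothelium with melanocytes. The alternatives were the replicate block, 4 scalings, a filter, averaged probe sets, a variance prior, array weights, left-out arrays and a threshold of 0.01. The fit was tested on simulated data. Arrays give no counts, so their number limits precision.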

Additional observations from a re-analysis of the deposited data

How the results depend on the processing

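Over 16 alternatives every measured member kept its direction, and TNFAIP3 (1.57 to 1.75), NFKBIA, NFKBIZ, ICAM1, NFKB2 and RELA kept their calls. The replicate block, the filter, averaged probe sets, the variance prior and the threshold of 0.01 leave the members' differences unchanged. In those alternatives only a call could move, not a direction. The NFKB1 call was lost under cyclic loess and under quantiles of single-gene probe sets (-0.13 in both), without shControl replicate 2 (-0.24 to -0.17 over the 6 left-out arrays) and at a threshold of 0.01 (-0.20). REL was lost with the replicate block (0.12, adjusted p = 0.0738), after centring on the array median (0.011), without any 1 array (0.11 to 0.12) and at 0.01 (0.12). RELB was lost with the replicate block (0.17, adjusted p = 0.0586), after quantile normalization of all probe sets (0.13), after centring (0.058), without any 1 of 4 arrays (0.13 to 0.20) and at 0.01 (0.17). Left-out arrays leave fewer samples; for the scalings the cause was not tested. Thus 1 member was called lower under cyclic loess, under quantiles of single-gene probe sets and at 0.01, and 1 to 2 with arrays left out. Over all genes, centring gave 1782 called higher and 7932 lower, with a median difference of -0.12. Deviations from the group mean correlated at r = -0.15, -0.037 and 0.13 between samples with the same replicate number. Between samples with different numbers r ran from -0.14 to 0.16. With 3 arrays a group, each less the group mean, these values cannot decide whether the numbers pair samples. The block moved the calls to 7165 of 18404 genes, against 7634 without it. Of 33 other named genes with a call, markers not counted, 27 kept it in every alternative that held them. The filter on dim genes left out 8 of the 33, and BCL3, TRAF3, TRAF5, MAP3K14, IKBKG and CXCL3 lost their call in some alternative. NFKBIB, not called, turned lower after centring (-0.087) and without shTP63 replicate 3 (-0.011) or shControl replicate 2 (-0.0071); with arrays left out it ran from -0.011 to 0.042. Dim probe sets compress true changes.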
